A study of Mus musculus with 24 samples.

Results

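Excision repair of cisplatin adducts in mouse liver was examined for a component with a period of 12 h, that is, a pattern that goes up and down 2 times within a day. The deposited tables held 25239 gene entries, of which 24203 carried 1 gene symbol and 18324 had enough reads on the transcribed strand to be tested in the 12 liver libraries of the 24 in the series. The rule took every entry with 1 symbol and used no 12 h value, and a filter on low reads set which of them were tested. In XR-seq the oligomers that excision repair releases around a lesion are sequenced, so that a read marks a place where damage was being removed. All animals were wild type C57BL/6J females, 6 months old, under a cycle of 12 h light and 12 h dark. All received cisplatin by intraperitoneal injection at 10 mg/kg, and tissue was collected 2 h afterwards. The zeitgeber times (ZT, counted in hours from lights on) were 0, 4, 8, 12, 16 and 20. Each time had 2 liver libraries, and 12 kidney libraries of the same design served for comparison. No group without cisplatin was analysed here, so the background without adducts is not known. Whether both libraries of a time stem from different animals is not given in the labels. The p-values below therefore rest on the variation among these samples alone, part of which may be technical.

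Most daily rhythms in liver follow the circadian clock, in which the activators BMAL1 (gene Arntl) and CLOCK drive their own repressors, the PER and CRY proteins, through E-box elements. A second class of liver genes is known from RNA studies to cycle every 12 h, and many of these act in the unfolded protein response of the endoplasmic reticulum (ER), where the sensors IRE1 (Ern1), ATF6 and PERK (Eif2ak3) and the transcription factor XBP1 raise chaperones such as BiP (Hspa5). Because RNA polymerase that stalls at an adduct recruits repair, reads on the transcribed strand (TS) rise with the transcription of a gene, while reads on the non-transcribed strand (NTS) reflect repair that is independent of that gene's polymerase. In tissue as a whole, fewer cells of a type and less repair per cell cannot be told apart.

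For each gene a cosine wave of 24 h and one of 12 h were fitted together to the TS read counts, and the 12 h wave was tested. With 6 times, ZT0 falls together with ZT12, ZT4 with ZT16 and ZT8 with ZT20 in the 12 h cycle, so that this wave rests on 3 points with 4 libraries at each. A pattern of this kind need not have 2 separate peaks. When the 12 h wave peaks 6 h away from the 24 h wave, it flattens the top of the daily curve and narrows its trough, and when both peak together it sharpens the top. The amplitude is given on the log2 scale, and an amplitude a means a ratio of 2 to the power of 2a between the peak and the trough of that wave alone. Gene levels are TS counts scaled to library size (CPM), and levels of different genes are not compared.

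A liver library held between 9538537 and 21050661 TS reads, and its NTS reads came to between 1333813 and 2940892. Markers of the labelled tissue were present: 27 of 28 hepatocyte genes were higher in liver than in kidney. Cps1, the first enzyme of the urea cycle, was at 110.2 to 202 CPM in liver and 1.89 to 6.65 in kidney. The pancreatic acinar markers summed to 16.6 to 23.97 CPM in liver. The liver library of ZT0 replicate 1 stood apart from the other 11. All 14 of 14 endothelial markers had their highest value there, and their sum was 879 CPM against 303 to 438 in the others. Flt1, a receptor for vascular growth factors, reached 159 CPM in that library and 45.9 to 73.7 elsewhere, and Stab2, a scavenger receptor of liver sinusoids, 149 against 58.9 to 84.2. The 16 immune markers summed to 94.99 CPM there against 49.5 to 74.5, and the 28 hepatocyte genes to 1590.4 against 1919 to 2282. The chi-square per degree of freedom between both libraries of a time was 23.1 at ZT0 and 3.13 to 5.24 at the other times. The part of this library in the 12 h results was not tested beyond leaving it out, and the main counts are given with it and without it. Without it ZT0 rests on 1 library, ZT0 replicate 2, which had the lowest endothelial sum of all (303 CPM). Every count and list share of that fit leans on this single library at ZT0.

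**Figure D1:**
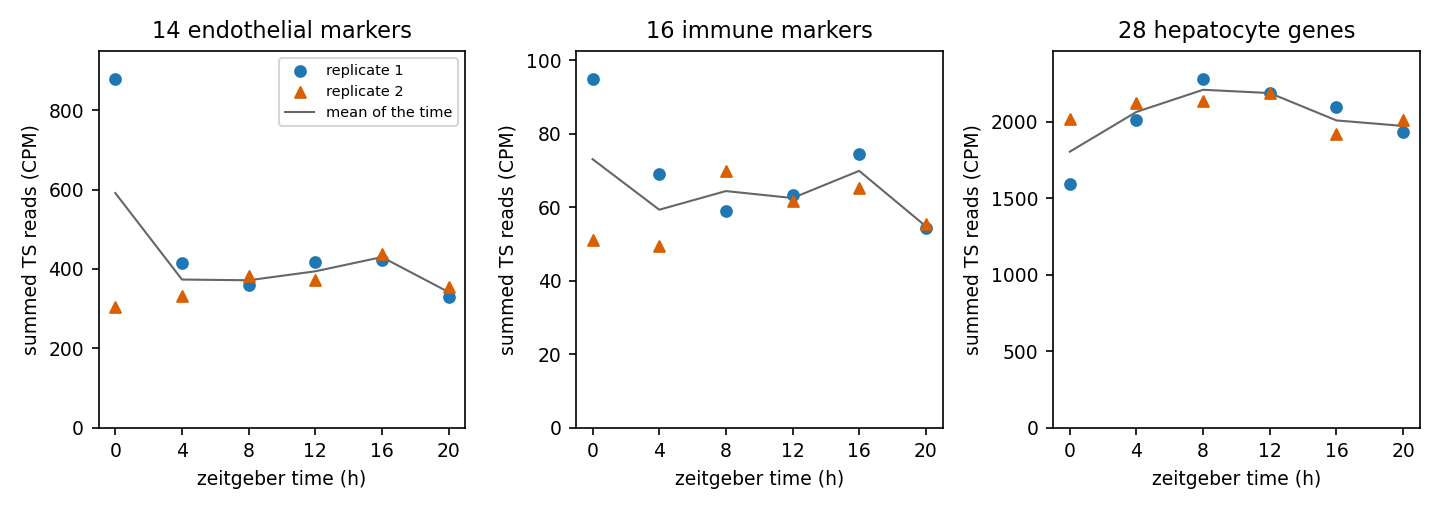
Summed TS reads (CPM, vertical axes from 0) of 14 endothelial, 16 immune and 28 hepatocyte marker genes in each liver library against zeitgeber time (h), with circles for replicate 1, triangles for replicate 2 and a line through the mean of each time. The ZT0 replicate 1 library lies at 879 CPM for the endothelial sum, above the 303 to 438 of the other 11 libraries, and at 1590.4 CPM, the lowest value, for the hepatocyte sum.

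No gene passed the test for a 12 h component in TS reads across all 12 libraries. By the quasi-likelihood test of edgeR, with p-values adjusted after Benjamini and Hochberg, 0 of 18324 genes (0%) had an adjusted p under 0.05, and 474 (2.59%) had an unadjusted p under 0.05. Genes without a 12 h wave would be expected to give a share of 0.05 there, which the 2.59% does not reach. The reason was not tested, and the shares of all genes given below serve for comparison, not as an expected rate. In the same fit the 24 h wave was called in 2513 genes (13.7%), a count that ran from 961 without ZT20 replicate 1 to 4928 (26.9%) without ZT0 replicate 1. Other tests on the same genes gave other counts: DESeq2's likelihood ratio test called 21 genes of the 11929 that it gave an adjusted p (0.176%), limma on log2 CPM called 0, limma on CPM without a log called 1, and edgeR without a filter on low counts called 1. Without ZT0 replicate 1 edgeR called 2 genes (0.0109%), Arntl and Per3, and 1698 (9.27%) had an unadjusted p under 0.05. Leaving out ZT0 replicate 2 in its place gave 0 calls and 1299 genes at that p, and leaving out any of the other 10 libraries gave 338 to 523. Arntl was the only gene called without ZT8 replicate 1 (adjusted p = 0.0432), and Arntl (adjusted p = 0.0041) and Tcea3 were the 2 called without ZT8 replicate 2. Of the 474 genes 399 (84.2%) were also among the 1698, where they made up 23.5%.

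The fit also bounds how large a 12 h wave the reads of each gene still allow. The upper 95% limit of the amplitude was under 0.2 in 6668 genes (36.4%) and under 0.5 in 13374 (73.0%). Without ZT0 replicate 1 it was under 0.2 in 7304 genes (39.9%). Genes with a mean of 2000 reads or more had a median limit of 0.13, a ratio of 1.20 between peak and trough, while genes with a mean under 20 reads had one of 0.76, a ratio of 2.86. For weakly repaired genes even a large 12 h wave therefore lay within the limit. The limit is not the size at which a gene would be called, since Arntl was not called at an amplitude of 0.64.

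Arntl, which encodes the clock activator BMAL1, had the smallest p of all genes. Its TS level was 415 and 424 CPM at ZT0, 411 and 398 at ZT4, 124 and 71.7 at ZT8, 105 and 137 at ZT12, 412 and 419.6 at ZT16, and 406 and 409.8 at ZT20. It thus stayed on a plateau of 398 to 424 CPM from ZT16 to ZT4 and dropped sharply at ZT8 and ZT12, whose 4 libraries did not overlap the other 8. The 12 h wave had an amplitude of 0.64 ± 0.08 (SE), a ratio of 2.44 between its peak and trough, with peaks at 3.69 and 15.7 h. The 24 h wave measured 1.12 ± 0.08 and peaked at 21.8 h. The 12 h wave thus peaked 5.89 h away from the 24 h peak on the 12 h clock, close to the 6 h that flattens a daily curve most. Its adjusted p was 0.191 by edgeR's quasi-likelihood test, and without ZT0 replicate 1 the amplitude was 0.64 ± 0.07 with an adjusted p of 0.0393. In leave-one-out fits its adjusted p ranged from 0.0041 to 0.98. The Arntl entry (chromosome 7, 113207465 to 113314126, plus strand, mm10) covers 107 kb and overlaps no other.

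The same plateau form appeared in other genes among the 10 of smallest p, and those described here were not called by edgeR. Map4k4, a kinase upstream of JNK signalling (chromosome 1, 39900913 to 40026310, plus strand), was at 344 and 303 CPM at ZT0, 281 and 261 at ZT4, 149 and 127 at ZT8, 132 and 165 at ZT12, 292 and 282 at ZT16, and 334 and 321 at ZT20. Its libraries at ZT8 and ZT12 lay below all others, as for Arntl, and its 12 h wave (0.25 ± 0.04, peaks at 3.79 and 15.8 h) stood 5.93 h from the 24 h peak at 21.7 h. Smagp, a small transmembrane glycoprotein (chromosome 15, 100621340 to 100636940, minus strand), fell from 98.0 and 90.8 CPM at ZT20 to 32.6 and 34.4 at ZT12. Its remaining libraries were at 88.1 and 87.1 CPM at ZT0, 80.0 and 71.7 at ZT4, 46.4 and 40.2 at ZT8, and 73.6 and 70.8 at ZT16. The 12 h wave of Smagp had an amplitude of 0.26 ± 0.04 with peaks at 5.04 and 17.0 h, on a 24 h amplitude of 0.73. Igf2bp2, an RNA-binding protein (chromosome 16, 22059009 to 22163299, minus strand), had 65.6 to 81.9 CPM in the 8 libraries of ZT16, ZT20, ZT0 and ZT4 and 38.5 to 48.3 in the 4 of ZT8 and ZT12. Its 12 h amplitude was 0.24 ± 0.04 with a first peak at 4.04 h.

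The period genes had their 12 h peaks at other times. Per3, a period gene (chromosome 4, 151003655 to 151044665, minus strand), was at 53.4 and 39.96 CPM at ZT0, 49.3 and 63.8 at ZT4, 149 and 138 at ZT8, 142 and 134 at ZT12, 121 and 116 at ZT16, and 87.4 and 88.8 at ZT20. It rose steeply between ZT4 and ZT8 and declined in steps afterwards, and the 4 libraries of ZT8 and ZT12 lay above the other 8. The 12 h amplitude was 0.32 ± 0.05 with peaks at 7.88 and 19.9 h (rank 4 of all genes by edgeR's p, adjusted p = 1.00), beside a 24 h amplitude of 0.83 with a peak at 12.5 h. It was 0.36 ± 0.04 without ZT0 replicate 1, with an adjusted p of 0.0393. Per2, the sister period gene (chromosome 1, 91415982 to 91459328, minus strand), ranged from 98.3 CPM in a ZT4 library to 294 in a ZT8 library and had a 12 h amplitude of 0.36 ± 0.07 with peaks at 8.49 and 20.5 h (rank 12, adjusted p = 1.00 by edgeR). Per2 stayed at 232 to 257 CPM at ZT16 and ZT20, above the 98.3 to 156 of ZT0 and ZT4.

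Lingo4, a transmembrane leucine-rich repeat protein (chromosome 3, 94399219 to 94404501, plus strand), gave a plateau of another form. Another gene entry of the same strand ends shortly before the start of Lingo4. The part of transcription running on from that gene in the Lingo4 reads was not tested. Lingo4 had 6.31 to 10.99 CPM at ZT0 and ZT4, 13.0 and 17.8 at ZT8, and 23.4 to 25.2 in the 6 libraries from ZT12 to ZT20, an even plateau. Its 12 h amplitude was 0.35 ± 0.06 with peaks at 9.06 and 21.1 h. Ngef, an exchange factor for small GTPases (chromosome 1, 87476829 to 87573870, minus strand), had 333 and 291 CPM at ZT12 and 152 to 227 in the other 10 libraries, so that a narrow top at ZT12 stood out. Its 12 h wave (0.22 ± 0.04) peaked at 10.3 and 22.3 h, 3.02 h from the 24 h peak at 13.3 h.

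Fgfr2 and Fam124a differed from these by a 12 h wave larger than their 24 h wave. Fgfr2, a receptor for fibroblast growth factors (chromosome 7, 130162451 to 130266808, minus strand), was at 167 and 163 CPM at ZT0, 135 and 142 at ZT4, 151 and 158 at ZT8, 174 and 168 at ZT12, 124 and 129 at ZT16, and 124 and 139 at ZT20. The 4 libraries of ZT0 and ZT12 lay at 163 to 174 CPM, above all other 8, so that its highest times were 12 h apart. Its 12 h amplitude was 0.20 ± 0.03, a ratio of 1.32, with peaks at 11.4 and 23.4 h (adjusted p = 0.445 by edgeR), and its 24 h amplitude 0.11 ± 0.03 (adjusted p = 0.0507). With ZT0 replicate 1 left out the 12 h amplitude was 0.19 ± 0.03 and the adjusted p 0.129. Fam124a, whose function is little known (chromosome 14, 62555737 to 62608485, plus strand), had a 12 h amplitude of 0.35 ± 0.06 with peaks at 2.90 and 14.9 h beside a 24 h amplitude of 0.29. It had 63.3 to 82.2 CPM at ZT0 and ZT4 and 64.6 and 70.5 at ZT16, against 39.3 to 50.6 at ZT8 and ZT12, and its ZT20 libraries were apart at 62.4 and 44.7.

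**Figure D2:**
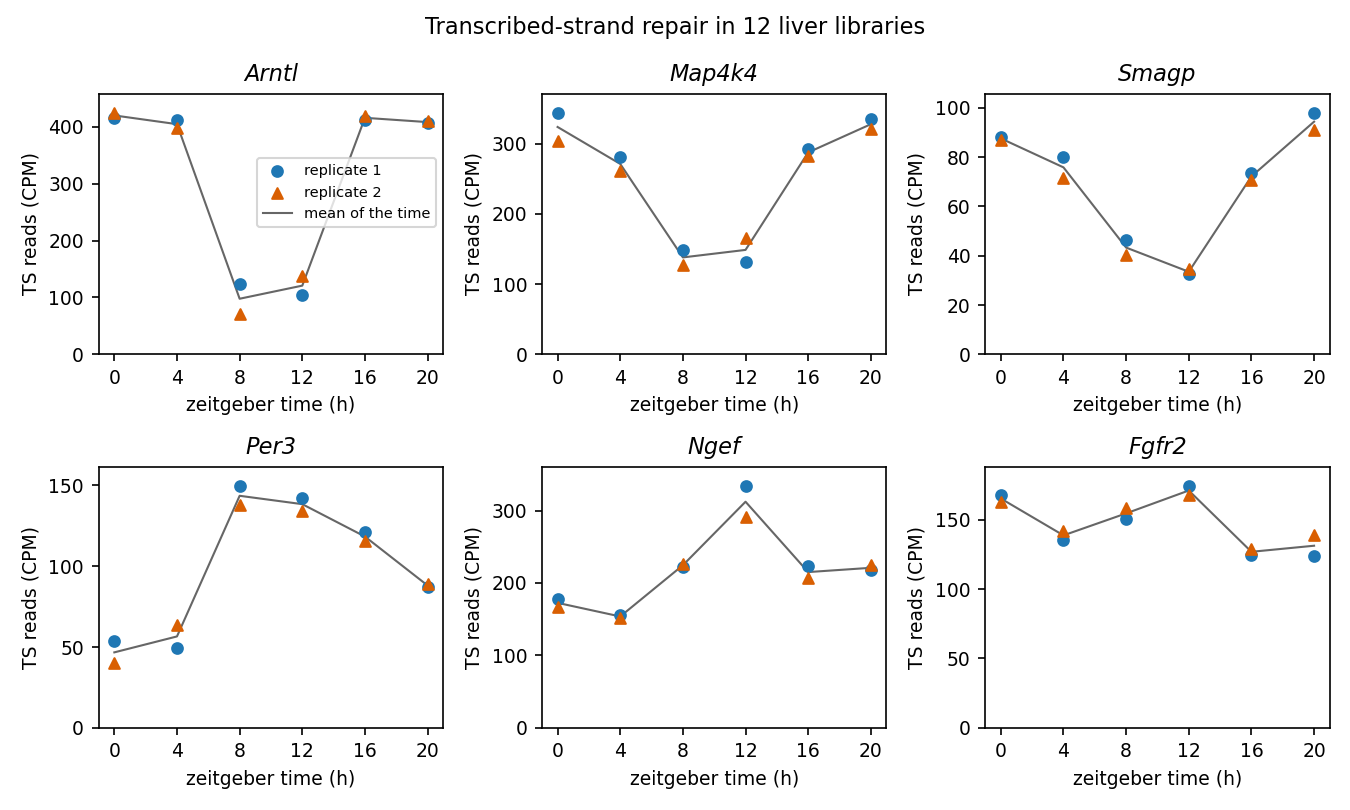
TS reads (CPM, vertical axes from 0) of Arntl, Map4k4, Smagp, Per3, Ngef and Fgfr2 in the 12 liver libraries against zeitgeber time (h), with circles for replicate 1, triangles for replicate 2 and a line through the mean of each time. Arntl shows a plateau of 398 to 424 CPM broken at ZT8 and ZT12, Per3 a steep rise after ZT4, and Fgfr2 the highest levels at ZT0 and ZT12 (163 to 174 CPM).

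All 10 genes of smallest p were among the 21 called by DESeq2's likelihood ratio test, where Arntl had an adjusted p of 4.21e-10 and Fgfr2 one of 1.06e-05. The other 11 included Per2, Ces1d (a carboxylesterase with close paralogues, so that its reads are uncertain), Mettl24, Car1, Dhx29, Gabrr2 and Plppr1. Asap2 was also called and overlaps Itgb1bp1 of the opposite strand, and Fam65b was called in both of its overlapping entries and also overlaps Gm11346 of the opposite strand. The fitted 12 h amplitudes of the 21 lay between 0.17 and 0.64. Of these genes 18 were also called by edgeR for the 24 h wave, and 4 had a 12 h wave larger than the 24 h wave. In 12 the 12 h peak lay more than 4 h from the 24 h peak on the 12 h clock, and in 10 when CPM without a log was fitted. Without ZT0 replicate 1 DESeq2 called 124 genes of the 12284 that it then gave an adjusted p, and 17 of the 21 were among them.

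The phase between both waves was counted over the genome. On the log2 scale 687 of the 2513 genes called at 24 h (27.3%) had a 12 h peak more than 4 h from the 24 h peak, the flattened form, and 841 (33.5%) had one within 2 h. Over all 18324 genes the shares were 29.4% and 35.9%. Of the 298 genes called at 24 h with a 24 h amplitude of at least 0.5, 129 (43.3%) had the flattened form on the log2 scale and 72 (24.2%) a gap within 2 h. When the same waves were fitted to CPM without a log, the split of these 298 turned to 71 (23.8%) and 139 (46.6%), and that of the 2513 was 468 (18.6%) and 1144 (45.5%). The difference between these sets was not tested. Arntl kept the flattened form on both scales (gap 5.89 h on log2 and 5.93 h on CPM), and its 12 h wave measured 32.0% of its mean on the CPM scale, beside 56.6% for the 24 h wave. Npas2, the sister gene of Clock, did not keep it: its 12 h peak was 5.90 h from the 24 h peak on the log2 scale and 1.29 h on the CPM scale. Npas2 fell from 439 and 514 CPM at ZT20 to 13.4 and 13.9 at ZT12, and its 12 h amplitude of 0.42 ± 0.17 ranked 828 by edgeR's p (adjusted p = 1.00). With ZT0 replicate 1 left out, 164 of 374 genes of that 24 h amplitude (43.9%) and 1442 of all 4928 called at 24 h (29.3%) had the flattened form on the log2 scale.

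Of the 474 genes with an unadjusted p under 0.05, 221 (46.6%) were also called for the 24 h wave, which is 8.79% of all genes so called. Their 12 h peaks lay nearest ZT4 and ZT16 in 192 genes, nearest ZT8 and ZT20 in 167 and nearest ZT0 and ZT12 in 115. The 2 highest time means were 12 h apart in 122 of them (25.7%), against 1725 of all 18324 genes (9.41%). The values that chose this set are those counted here, so these shares are a description and carry no test.

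The clock lists held the largest share of genes with a small p. Of 8 clock activators and genes of their phase 3 had an unadjusted p under 0.05 (37.5%), among them Arntl and Clock, and of 14 clock repressors and output genes with E-box or D-box elements 6 did (42.9%), namely Per3, Per2, Tef, Usp2, Dbp and Bhlhe41, beside 2.59% of all genes and 8.79% of the genes called at 24 h. The median 12 h amplitude was 0.14 in the first list and 0.18 in the second, and 0.07 over all genes, without matching for read depth. All 9 of these genes were called for the 24 h wave in the same fit. In 7 of them the 12 h peak stood more than 4 h from the 24 h peak on the log2 scale. This depends on the scale, since the gap of Per3 was 4.60 h on log2 and 3.82 h on CPM. Arntl and Per2 stayed over 4 h on CPM (5.93 and 4.69 h). None of the 9 had a 12 h wave larger than its 24 h wave. The counts without ZT0 replicate 1 were 4 of 8 and 8 of 14, beside 9.27% of all genes and 18.4% of the 4928 genes then called at 24 h, with Cry1, Wee1 and Nr1d2 added.

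Clock, the partner of BMAL1, was at 158 and 187 CPM at ZT0, 168 and 168 at ZT4, 125 and 112 at ZT8, 130.0 and 132 at ZT12, 188 and 173 at ZT16, and 179.7 and 184 at ZT20. Its curve repeated the plateau of Arntl with a smaller drop, with a 12 h amplitude of 0.15 ± 0.03 and peaks at 3.75 and 15.7 h (rank 42 by edgeR's p). A microRNA entry, Mir1191, lies within Clock on the same strand. Dbp, which encodes a D-box activator and overlaps Sphk2 of the opposite strand (Dbp on chromosome 7, 45705247 to 45710203, plus), had 39.9 and 37.8 CPM at ZT8, 36.8 and 28.3 at ZT12 and 2.97 to 9.55 at ZT0 and ZT4. Its 12 h amplitude was 0.50 ± 0.13 (rank 79 by edgeR's p, adjusted p = 1.00), and 0.58 ± 0.07 without ZT0 replicate 1 (rank 3, adjusted p = 0.103). Cry1, a repressor (chromosome 10, 85131700 to 85185054, minus), had 77.3 to 131 CPM and a 12 h amplitude of 0.13 ± 0.05 (rank 559). Nr1d1, the repressor REV-ERBα, had 24.5 to 72.3 CPM and a 12 h amplitude of 0.16 ± 0.08 (rank 1913). Its entry (chromosome 11, 98767932 to 98775377, minus) overlaps Thra of the opposite strand.

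The promoter of Per3 is shown because Per3 was, beside Arntl, the gene called once the ZT0 replicate 1 library was left out, and because it holds the element through which DBP and TEF act. The 250 bases before the start of Per3 (RefSeq, GRCm38.p6, chr4:151044666-151044915, minus strand, 5′ to 3′) carry 2 copies of the D-box TTATGTAA, in capitals, at 205 and 158 bases before the start.
Per3: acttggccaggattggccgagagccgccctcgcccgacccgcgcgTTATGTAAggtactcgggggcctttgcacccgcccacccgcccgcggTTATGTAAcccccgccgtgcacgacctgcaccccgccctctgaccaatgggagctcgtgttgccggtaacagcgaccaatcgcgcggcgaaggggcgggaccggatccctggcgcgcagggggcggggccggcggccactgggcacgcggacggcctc
Searched on both strands, this D-box was found in 0.8188% of 32851 mouse promoter windows of that length, and in no other named gene for which a RefSeq promoter was matched. The E-box CACGTG, found in 6.021% of windows, occurred in the Cry1 window alone among them. A match is a description of these letters and not evidence of binding.

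No 12 h component was detected in the repair of ER stress response genes at this depth. Of the 31 tested genes of ER stress and protein folding 0 were called by edgeR and 1 (3.23%) had an unadjusted p under 0.05, beside 2.59% of all genes, and DESeq2 called none of them. Their median 12 h amplitude was 0.04, against 0.07 over all genes, and in 21 of 31 the upper 95% limit of the amplitude was under 0.2. Both measures fell with depth over all genes. The median amplitude was 0.22 under 20 reads, and 0.04 with a median limit of 0.16 at 500 to 2000 reads. The ER stress genes had means of 13.5 to 5566 reads and were not matched to all genes for depth. The sensor Ern1 (chromosome 11, 106397620 to 106487796, minus strand) was at 237 and 276 CPM at ZT0, 276 and 266 at ZT4, 274 and 264 at ZT8, 271 and 282 at ZT12, 275 and 255 at ZT16, and 254 and 265 at ZT20. In the 12 h cycle the libraries of its 3 points overlapped. They had 237 to 282 CPM at ZT0 and ZT12, 255 to 276 at ZT4 and ZT16, and 254 to 274 at ZT8 and ZT20. The amplitude was 0.01 ± 0.03 with an upper limit of 0.0998, a ratio of at most 1.15 between peak and trough. Atf6 (chromosome 1, 170704457 to 170867771, minus strand), with 329.8 to 389 CPM, gave 0.01 ± 0.03 and an upper limit of 0.10. Eif2ak3 (chromosome 6, 70844515 to 70905241, plus strand), with 156 to 192 CPM, gave 0.04 ± 0.03 and an upper limit of 0.14.

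Xbp1, whose spliced form is the main effector of IRE1, was at 29.8 and 29.3 CPM at ZT0, 26.9 and 29.5 at ZT4, 33.8 and 32.6 at ZT8, 33.8 and 33.3 at ZT12, 28.4 and 30.5 at ZT16, and 24.9 and 28.7 at ZT20. Its libraries at ZT8 and ZT12 were the highest. The 24 h amplitude was 0.14 ± 0.04 (adjusted p = 0.104 by edgeR), which was not called either. The 12 h amplitude was 0.07 ± 0.04 (adjusted p = 1.00 by edgeR) with an upper limit of 0.19. The Xbp1 entry is on chromosome 11, 5520641 to 5525993, plus strand. Hspa5, the chaperone BiP (chromosome 2, 34772090 to 34776529, plus strand), rested on a mean of 186 reads and ranged from 8.88 CPM in a ZT20 library to 14.5 in a ZT0 library. Its amplitude of 0.17 ± 0.08 (adjusted p = 1.00 by edgeR) had an upper limit of 0.40, a ratio of 1.75, so its reads still allow a 12 h wave up to that size. Creld2, a target of ATF6, had the smallest p of the list (rank 325 of all genes) with an amplitude of 0.12 ± 0.04 and peaks at 8.78 and 20.8 h.

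Once ZT0 replicate 1 was left out, the ER stress genes with an unadjusted p under 0.05 by edgeR were 4 of 31 (12.9%), beside 9.27% of all genes. These were Creld2 (0.12 ± 0.03), the disulphide isomerases Pdia6 (0.10 ± 0.03) and Pdia4 (0.08 ± 0.03), and the chaperone Hyou1 (0.12 ± 0.04). The 12 h peaks of these 4, chosen by their p, lay between 7.07 and 8.54 h and again 12 h later. Other members peaked both there and elsewhere in that fit. Dnajb11 peaked at 7.59 h and Atf6b at 7.55 h, but Hspa5 at 2.43 h, Herpud1 at 4.39 h and Ern1 at 0.59 h. Pdia6 overlaps Atp6v1c2 of the opposite strand, and Pdia4 holds the microRNA entry Mir704 on its own strand. None passed adjustment over all genes. Secretory pathway genes gave 1 of 28 with all libraries and 3 of 28 without that library, with peaks between 7.57 and 7.75 h, such as Sec11c of the signal peptidase (0.15 ± 0.04). Heat shock genes gave 0 of 16 both times by edgeR.

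**Figure D3:**
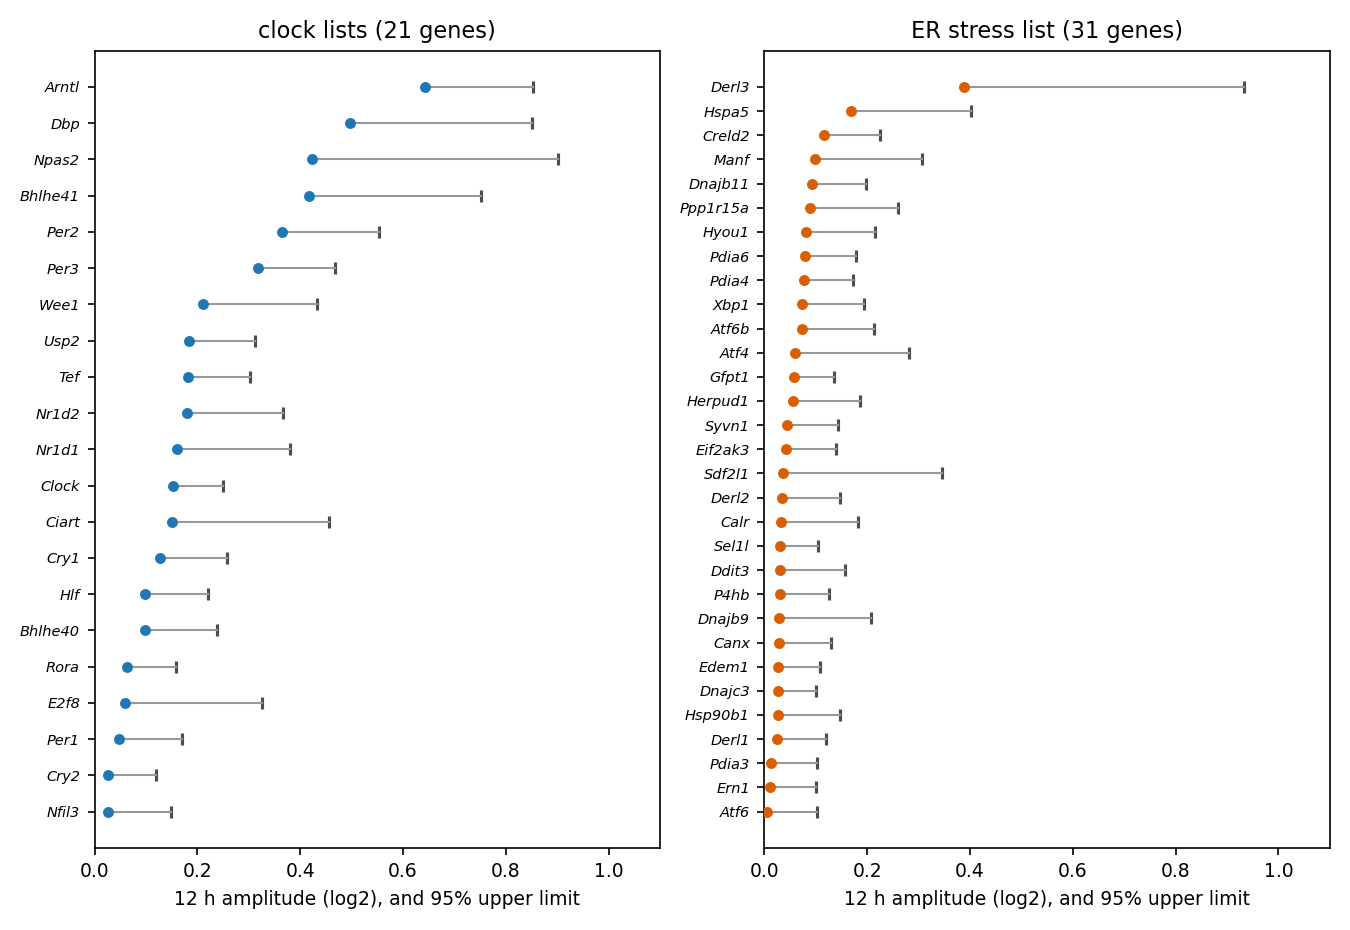
Fitted 12 h amplitude (log2, horizontal axis) of TS reads with all 12 liver libraries for 21 of the 22 clock genes and for 31 ER stress genes, as dots, with a line up to the upper 95% limit, as a bar. Arntl has the largest clock amplitude at 0.64, while 21 of the 31 ER stress genes have an upper limit under 0.2, and the long line of Derl3 belongs to a weakly repaired gene.

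The Hspa5 promoter is shown because the ER stress element through which ATF6 acts on this gene lies in it. The 250 bases before its start (RefSeq, GRCm38.p6, chr2:34771840-34772089, plus strand, 5′ to 3′) hold 1 copy of that element, CCAAT and CCACG with 9 bases between them, in capitals, at 65 bases before the start.
Hspa5: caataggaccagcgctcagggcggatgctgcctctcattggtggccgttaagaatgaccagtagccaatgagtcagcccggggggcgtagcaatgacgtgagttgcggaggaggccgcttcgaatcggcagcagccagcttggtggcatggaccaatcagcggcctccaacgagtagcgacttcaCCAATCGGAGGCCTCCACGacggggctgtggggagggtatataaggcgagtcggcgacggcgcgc
This element, searched on both strands, occurred in 0.1126% of the 32851 windows and in no other named gene with a matched promoter.

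Metabolic lists differed from each other in how many members had a small p, and the fit without ZT0 replicate 1 has 1 library at ZT0. Of 19 cholesterol synthesis genes 3 (15.8%) had an unadjusted p under 0.05 by edgeR with all libraries, and 9 (47.4%) without ZT0 replicate 1, beside 2.59% and 9.27% of all genes. The 12 h peaks of those 9, chosen by their p, lay in a window from 9.25 to 10.5 h and again 12 h later without that library. Nsdhl, a sterol dehydrogenase, had 27.3 and 32.0 CPM at ZT0, 23.2 and 25.7 at ZT4, 36.2 and 32.8 at ZT8, 41.6 and 34.4 at ZT12, 29.9 and 26.6 at ZT16, and 33.4 and 34.9 at ZT20. The 4 libraries of ZT4 and ZT16 were at 23.2 to 29.9 CPM, and of the other 8 only ZT0 replicate 1 fell into that range. The amplitude was 0.25 ± 0.05 (rank 22 by edgeR's p, adjusted p = 1.00), and 0.26 ± 0.05 without that library (rank 30, adjusted p = 0.161). Fdft1, the squalene synthase, which overlaps Ctsb of the opposite strand, had 0.14 ± 0.04, and Cyp51, Mvk, Dhcr7, Mvd, Fdps, Pmvk and Lss completed the 9. Lss overlaps a gene of the opposite strand. None passed adjustment over all genes.

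The same shares of all genes, 2.59% and 9.27%, stand beside the counts of the other metabolic lists. Of 23 xenobiotic metabolism genes 2 had an unadjusted p under 0.05 with all libraries and 3 without ZT0 replicate 1, led by Ces1d (0.28 ± 0.05) and the efflux pump Abcb1a (0.16 ± 0.05). Ces1d had 42.9 and 49.8 CPM at ZT4 and 65.4 to 92.3 from ZT8 to ZT20. Of 20 fasting and gluconeogenesis genes 0 had such a p by edgeR with all libraries and 6 (30.0%) without that library. Those 6 included the fatty acid hydroxylase Cyp4a14 (0.38 ± 0.10), which has close paralogues, and Pdk4 (0.18 ± 0.05), the kinase that slows glucose oxidation. Bile acid genes gave 1 of 19 and then 4 of 19 (21.1%), with Cyp7a1, the rate-limiting enzyme of bile acid synthesis, at 0.33 ± 0.11 with all libraries. Feeding and insulin genes gave 1 of 21 both times.

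Genes of nucleotide excision repair and p53 targets had a small p in 3.57% and 4.17% with all libraries, beside 2.59% of all genes. Without ZT0 replicate 1 the shares were 3.57% and 0%, beside 9.27% of all genes. The same shares of all genes stand beside the other lists below. Of 28 nucleotide excision repair genes 1 had an unadjusted p under 0.05 by edgeR with all libraries and 1 without ZT0 replicate 1, and this was Rpa1, a subunit of the single-strand binding protein RPA (0.10 ± 0.03, and then 0.13 ± 0.03). Of 24 p53 target genes 1 and then 0 did. Immediate early genes gave 3 of 17 and then 5 of 17, among them the growth-response gene Egr2 (0.46 ± 0.15) and the nuclear receptor Nr4a1 (0.24 ± 0.08), and targets of the amino acid response factor ATF4 gave 2 of 13 both times, Psat1 and Chac1. Ribosomal protein, proteasome and splicing genes gave 0 of 20, 0 of 22 and 0 of 21 in both fits, and complex I genes 0 of 21 and then 1 of 21.

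Markers of other cell types differed in how they stood in ZT0 replicate 1. The endothelial and immune sums were above those of all other liver libraries, as given above. The stellate and mesenchymal sum (155 CPM), the cholangiocyte sum (300) and the acinar sum (20.1) lay within the range of the other 11. The erythroid sum was below it (46.7 against 53.2 to 69.9). Endothelial markers had the highest median 12 h amplitude of the 26 lists with all libraries (0.25). Without ZT0 replicate 1 their median was 0.14. This was below the 0.21 of the clock repressors and output genes, the 0.20 of stellate and mesenchymal markers and the 0.18 of erythroid markers. Cholangiocyte, immune and acinar markers (0.17 each) and clock activators (0.15) were above it as well. Of the 14 endothelial markers 0 were at an unadjusted p under 0.05 by edgeR with all libraries and 6 (42.9%) without ZT0 replicate 1, beside 2.59% and 9.27% of all genes. The peaks of those 6 then lay between 3.87 and 4.81 h and again 12 h later, with amplitudes of 0.14 to 0.16. The summed level of all 14 was 478 ± 254 CPM (SD, n = 4) at ZT0 and ZT12, 387 ± 42.6 at ZT4 and ZT16 and 346 ± 21.6 at ZT8 and ZT20. Stellate and mesenchymal markers gave 1 of 13 and then 3 of 13, hepatocyte genes 0 of 28 and then 4 of 28 (14.3%), and immune, cholangiocyte, erythroid and acinar markers 0 in both fits. Without ZT0 replicate 1 the ZT0 level of each list is that of ZT0 replicate 2 alone, the library with the lowest endothelial sum (303 CPM). The part of these cells in the 12 h values of other genes was not tested.

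**Figure D4:**
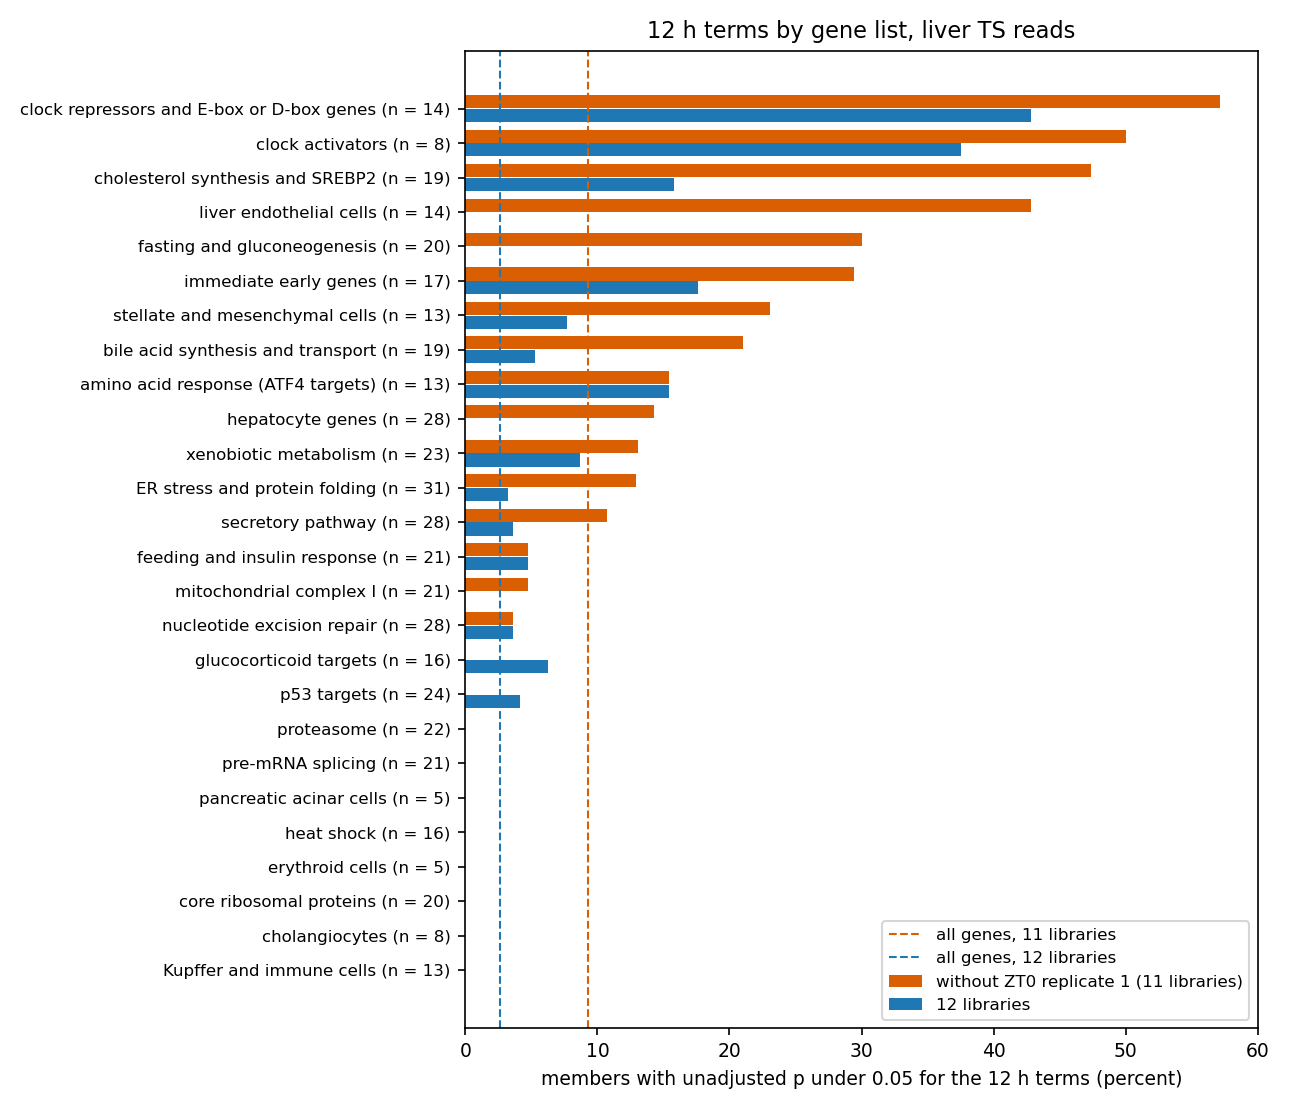
Percent of the tested members of each gene list (horizontal bars from 0) with an unadjusted p under 0.05 for the 12 h wave in liver TS reads, with all 12 libraries and with ZT0 replicate 1 left out; dashed lines give the same percent over all 18324 genes, 2.59 and 9.27. The clock lists lead in both fits, the cholesterol list reaches 47.4% with 11 libraries, and several lists have no bar.

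On the non-transcribed strand 2 of 17691 genes (0.0113%) were called for a 12 h wave by edgeR's quasi-likelihood test, Uts2 and Btbd10, each with an adjusted p of 0.0128. Neither was called without ZT4 replicate 1 or without any library of ZT8, ZT16 or ZT20, when the count was 0, and the count was 1 without ZT4 replicate 2 or ZT12 replicate 2. It was 3 without ZT0 replicate 1, 4 without ZT0 replicate 2 and 8 without a filter on low counts. An unadjusted p under 0.05 was reached by 458 genes (2.59%). Each of both called genes is the neighbour of a leading TS gene, and lies beyond that gene's end on the opposite strand. Btbd10 (chromosome 7, 113315644 to 113369339, minus strand) has its own end 1517 bases beyond the end of Arntl. Uts2 (chromosome 4, 150997097 to 151001810, plus strand) ends 1844 bases from the Per3 entry. Their non-transcribed strand is the DNA strand that is the template in Arntl or Per3. In the RefSeq annotation of GRCm38.p6 Per3 extends from 150997018 to 151044707 and spans Uts2, whereas Arntl and Btbd10 do not overlap there. The part of transcription beyond the annotated ends in these reads was not tested.

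The NTS level of Btbd10, scaled to the NTS reads of each library, was 106 and 127 CPM at ZT0, 99.0 and 74.3 at ZT4, 17.2 and 18.1 at ZT8, 20.8 and 19.3 at ZT12, 71.9 and 68.5 at ZT16, and 101 and 109 at ZT20. It was low at ZT8 and ZT12, as Arntl was on the TS, without overlap with the other times. The 12 h amplitude was 0.52 ± 0.07 with a peak at 3.75 h, where the Arntl TS wave had 3.69 h, and the 24 h peak was at 22.3 h. The NTS level of Uts2, which encodes the peptide urotensin 2, was 24.4 and 22.5 CPM at ZT0, 29.5 and 28.9 at ZT4, 143 and 135 at ZT8, 160.2 and 134 at ZT12, 93.3 and 91.7 at ZT16, and 61.1 and 57.2 at ZT20. Its 12 h amplitude was 0.49 ± 0.07 with a peak at 8.31 h, where the Per3 TS wave had 7.88 h, and the 24 h peak was at 12.3 h. On its own transcribed strand Btbd10 had 43.6 to 80.1 CPM, and the NTS of Arntl and Per3 gave 12 h amplitudes of 0.09 ± 0.07 and 0.25 ± 0.10 (adjusted p = 1.00 for each by edgeR).

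**Figure D5:**
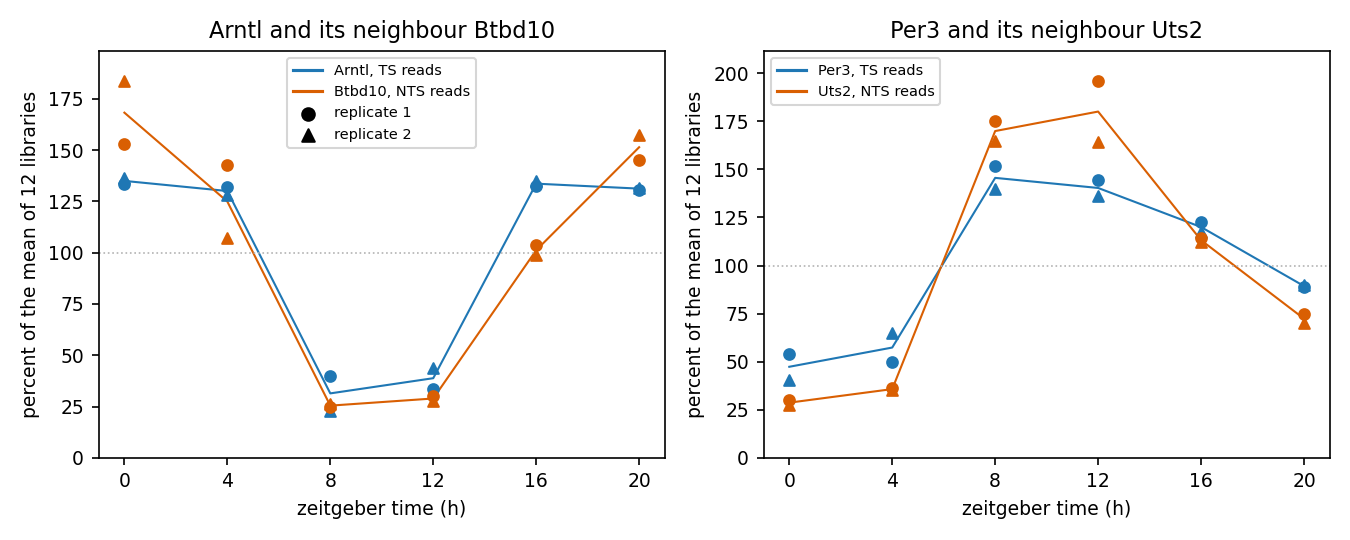
TS reads of Arntl and Per3 (blue) and NTS reads of their neighbours Btbd10 and Uts2 (orange) in the 12 liver libraries against zeitgeber time (h), each as percent of its own mean over the 12 libraries (vertical axes from 0, dotted line at 100), with circles for replicate 1, triangles for replicate 2 and lines through the means of each time. Arntl TS and Btbd10 NTS are both low at ZT8 and ZT12, and Per3 TS and Uts2 NTS are both low at ZT0 and ZT4.

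Set against the NTS of the same gene, the 12 h wave of TS reads passed edgeR's test with the library as a block in 0 of 17757 genes (0%), and 403 (2.27%) had an unadjusted p under 0.05. Arntl came nearest, with an amplitude of 0.65 ± 0.10 of the TS/NTS ratio (adjusted p = 0.102), followed among the named genes by Btbd10 (0.52 ± 0.09, adjusted p = 0.167). The count without ZT0 replicate 1 was 3, made up of Arntl, Btbd10 and Per2. It was 1 (Arntl) with the replicate number as a block, and 1 each without either ZT8 library. The TS took, of all genic reads, 87.3% ± 0.383 (SD, n = 4) at ZT0 and ZT12, 87.4% ± 0.650 at ZT4 and ZT16, and 87.6% ± 1.18 at ZT8 and ZT20. The 12 h amplitude of this share was 0.139 ± 0.245 points (SE), and a permutation test of the times gave p = 0.863. It was 0.179 points without ZT0 replicate 1 (permutation p = 0.826).

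In kidney, fitted alone, 0 of 18968 genes (0%) were called for a 12 h wave by edgeR, and 504 (2.66%) had an unadjusted p under 0.05. The difference between liver and kidney passed in 0 of 19394 genes (0%), and in 0 without liver ZT0 replicate 1, with 377 (1.94%) at an unadjusted p under 0.05. Kidney Arntl declined from 404 and 408 CPM at ZT20 through 381 and 369 at ZT0 and 319 and 277 at ZT4 to 107 and 80.0 at ZT8, and was at 134 and 86.0 at ZT12 and 258 and 263 at ZT16. This was a sloping curve in place of the even plateau of liver. Its 12 h amplitude was 0.32 ± 0.07 with a peak at 3.81 h, and the difference from liver had an amplitude of 0.33 ± 0.12 and an adjusted p of 1.00 by edgeR. Per3 had 0.10 ± 0.03 in kidney and 0.32 ± 0.05 in liver, and the difference (0.26 ± 0.06) had an adjusted p of 1.00. Kidney Fgfr2, at 155 and 138 CPM at ZT0 and 141 and 125 at ZT12, had an amplitude of 0.10 ± 0.04, and its libraries at ZT16 (142 and 148 CPM) lay as high.

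Among the 10 genes with the smallest p once ZT0 replicate 1 was left out were Cd14, Zc3h6 and 6430710C18Rik, which were chosen here after their values were seen. Cd14, the co-receptor for bacterial lipopolysaccharide, had 5.17 and 8.72 CPM at ZT0, 5.08 and 5.22 at ZT4, 4.37 and 4.54 at ZT8, 7.35 and 7.36 at ZT12, 5.29 and 5.73 at ZT16, and 4.66 and 4.50 at ZT20, on a mean of 85.8 reads. Its ZT12 libraries and ZT0 replicate 2 stood above all others, and ZT0 replicate 1 did not. Once replicate 1 is left out, the 8.72 CPM of replicate 2 alone stands for ZT0. The 12 h amplitude was 0.48 ± 0.07 with peaks at 0.56 and 12.6 h and a 24 h amplitude of 0.08 without that library (adjusted p = 0.129 by edgeR), and the 12 h amplitude was 0.39 ± 0.09 with it (adjusted p = 1.00). Zc3h6, a zinc finger gene, had 64.4 CPM in ZT0 replicate 2 and 45.4 in replicate 1, and a 12 h amplitude of 0.23 ± 0.03 without the latter (adjusted p = 0.129). None of these 3 passed adjustment over all genes.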

How the data were processed

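XR-seq reads of 24 libraries (12 liver, 12 kidney) were examined as deposited. The authors deposited, per the file headers, whole-number counts of reads on the TS and NTS of each gene entry. The genome was mm10, per the submitters' processing notes, and the aligner is not given in the sources used here, nor is the counter or its handling of shared reads. The extraction protocol in the labels names antibodies for other lesions, whereas the treatment names cisplatin. Starts in the files count from 0 and are printed with 1 added.

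Entries with no symbol (2.76% of liver TS reads) or several symbols (0.182%) were left out. Of the 24203 entries used 2894 overlap another on the same strand and 3516 one on the opposite strand. In R 4.3.3, edgeR 4.0.16 was used with filterByExpr, TMM, glmQLFit and glmQLFTest. Cosine and sine of 12 h were tested together beside those of 24 h, with Benjamini-Hochberg adjustment over all genes tested and a threshold of 0.05. Amplitudes carry an SE and an upper 95% limit from the fit. The TS/NTS ratio was tested as strand by 12 h terms, and the tissue difference as tissue by 12 h terms. The TS share was tested with 100000 permutations of the times, whose smallest p is 1e-05. DESeq2 1.42.0 and limma 3.58.1 were alternatives. The edgeR test was checked on simulated counts.

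Since fewer than 10 genes were called, the 10 smallest p with a mean of at least 20 reads were taken, with fixed clock and ER stress genes and the called NTS genes. A few genes so chosen are not reported here. Other genes were named after their values were seen, as members counted in a list or as calls of an alternative. The 26 lists hold 480 symbols, of which 458 were tested. Members and lists were chosen with earlier results of these data known. Both fits with limma, 1 mean per time with the replicate number as a block, and the further fits without ZT0 replicate 1 were added after seeing the data.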

Additional observations from a re-analysis of the deposited data

How the results depend on the processing

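The 12 h call count in TS reads was 0 with DESeq2 size factors, 1 mean per time, the NTS share as a covariate, entries without overlap, the length trend removed, no 24 h terms or limma on log2 CPM. It was 1 without a filter on low counts, 1 by limma on CPM, 21 by DESeq2, and 0 to 2 in leave-one-out fits. Without ZT0 replicate 1 it was 3 with the replicate block and 124 by DESeq2. Genes at an unadjusted p under 0.05 numbered 180 without the 24 h terms and 338 to 1698 in leave-one-out fits (1299 without ZT0 replicate 2). Without ZT0 replicate 1 they numbered 2083 with the replicate block and 1164 by DESeq2. The 24 h calls ranged from 961 (without ZT20 replicate 1) to 4928 (without ZT0 replicate 1), and were 1119, 1267, 1478 and 1321 without ZT8 replicate 1, ZT8 replicate 2, ZT16 replicate 1 and ZT20 replicate 2. The NTS count was 8 without the filter and 0 to 4 in leave-one-out fits. The ratio count was 1 without the filter and 0 to 3 in leave-one-out fits. The tissue difference gave 0 calls in all 24 leave-one-out fits. The replicate numbers have no stated meaning in the labels, so the main fits did not treat the libraries as paired. A correlation of deviations over 0.1 was found in 8 of 15 pairs of times (median 0.101), which does not settle whether they are. As a hint from the data, 12 of 12 libraries correlated best with their own number, and the TS share was higher in replicate 1 at all 6 liver times. With the replicate block the TS count was 0, the ratio count 1 and the 24 h calls 2879. The permutation p of the TS share was then 0.537, and the SE of its amplitude 0.123 points. Peaks turned by more than 3 h for Npas2 without the 24 h terms (0.37) and for Ern1 with the length trend removed (0.0062). In leave-one-out fits the amplitude was 0.0043 to 0.037 for Ern1, with a turned peak in 1 fit, and 0.0053 to 0.035 for Atf6, with one in 4. The peak also turned without ZT0 replicate 1 for Atf6 with the replicate block (0.042) or by DESeq2 (0.037). The TS share amplitude was 0.0572 to 0.348 points in leave-one-out fits, with the peak turned without ZT8 replicate 1 or ZT20 replicate 1. The cause of these changes was not tested. Counting depth limits genes under 20 reads most.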
